A study of Homo sapiens with 6 samples.

Results

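The TMCC family comprises the transmembrane and coiled-coil domain proteins encoded by *TMCC1*, *TMCC2* and *TMCC3*. Its members were taken as the rows of the count table that carry these symbols, which gave 3 of 60663 genes. The family was chosen by its *TMCC3* counts, which gave the largest rise among genes with a mean of at least 1 CPM after silencing of *LTBP2*, so the values of the members in this contrast are given as a description, without a test. CCD18Co, an established line of human colon fibroblasts, was transfected for 6 h with lipofectamine and either siRNA against *LTBP2* (siLTBP2) or a siRNA with no target (siNT). Cells were frozen 48 h after transfection and total RNA depleted of ribosomal RNA was sequenced. There were 3 libraries per group, all from the same line and culture medium, and the deposited counts per library lay between 44663424 and 53576899. The labels do not say whether the libraries came from separate cultures, so errors and p-values measure the spread between these libraries, which may be technical.

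TMCC proteins are held in the membrane of the endoplasmic reticulum (ER) by a pair of segments near their C-terminal end, and their coiled coils let them assemble with each other. TMCC1 gathers at sites where ER tubules touch endosomes and is needed, together with the actin regulator coronin 1C, for the release of endosome buds. TMCC3 sits at the three-way junctions of ER tubules and binds atlastins, the GTPases that fuse tubules. TMCC2 binds the amyloid precursor protein and is best known from erythroid cells and brain. In fibroblasts the ER network carries the synthesis of the secreted matrix.

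In GRCh38, *TMCC1* (ENSG00000172765) lies on the minus strand of chromosome 3, from 129647792 to 129893711. *TMCC2* (ENSG00000133069) lies on the plus strand of chromosome 1, from 205227946 to 205285632. *TMCC3* (ENSG00000057704) lies on the minus strand of chromosome 12, from 94567122 to 94650557. The genes span 246, 57.7 and 83.4 kb, and their canonical transcripts in GENCODE 44 have 7, 5 and 4 exons. The coding sequence has 653 codons in *TMCC1*, 709 in *TMCC2* and 477 in *TMCC3*, so the *TMCC3* protein is the shortest of the family. Aligned base by base outside gaps, the coding sequences were 70.4% identical between *TMCC1* and *TMCC2* (1338 of 1900 positions), 70.9% between *TMCC1* and *TMCC3* (989 of 1394) and 72.3% between *TMCC2* and *TMCC3* (1017 of 1407). The longest run of bases shared by any pair of canonical transcripts was 26. No counts were listed in any library for *TEX28*, a relative of the family, or for *TMCC2-AS1*, the antisense transcript of *TMCC2*.

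The windows before the first start site of each member are rich in G and C, at 74.4% in *TMCC1*, 69.2% in *TMCC2* and 70.4% in *TMCC3*. The 250 bases before the main start site of *TMCC3* are shown because this gene differed most between the groups. They lie on the minus strand at chr12:94650558-94650807 (GRCh38.p14, RefSeq) and read 5′ to 3′, with the motif GGGCGG, searched on both strands (as CCGCCC on the other), in capitals.
TMCC3: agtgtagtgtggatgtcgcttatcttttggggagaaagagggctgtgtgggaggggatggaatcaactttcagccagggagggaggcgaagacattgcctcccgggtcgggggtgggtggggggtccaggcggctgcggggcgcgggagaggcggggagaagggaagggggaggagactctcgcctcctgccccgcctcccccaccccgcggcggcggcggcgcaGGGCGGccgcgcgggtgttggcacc
This window holds 1 copy of the motif, 21 CG dinucleotides and 70.4% G and C. The other *TMCC3* start site in RefSeq has 46.0% G and C, 4 CG dinucleotides and no copy in its window. The motif is a common one, found at least once in 42.6% of the 35116 promoter windows of the same length, whose median was 58.0% G and C and 11 CG dinucleotides. The first windows of *TMCC1* and *TMCC2* each hold 4 copies, and 13.9% of all windows hold at least 3. At *TMCC1* much of the window is shared with the divergent transcript *TMCC1-DT*, which is why the 159 bases between the start sites of the pair are shown. They lie at chr3:129893712-129893870 and are written on the strand of *TMCC1*, with copies of the same motif in either orientation in capitals.
TMCC1 and TMCC1-DT: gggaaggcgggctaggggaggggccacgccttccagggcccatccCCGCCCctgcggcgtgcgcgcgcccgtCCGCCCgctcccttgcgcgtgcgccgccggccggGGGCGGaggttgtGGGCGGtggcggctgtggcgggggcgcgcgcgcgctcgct
This stretch has 83.0% G and C, 27 CG dinucleotides and 4 copies of the motif.

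*TMCC3* was barely expressed in siNT and was about 7 times higher in siLTBP2. It had 12, 15 and 18 counts in siNT 1 to 3, against 85, 115 and 114 in siLTBP2 1 to 3. Scaled to a common library total after TMM normalization (CPM), these are 0.259, 0.304 and 0.334 CPM in siNT against 1.95, 2.43 and 2.16 CPM in siLTBP2. All siLTBP2 libraries lay far above all siNT libraries, and the lowest of the former was 5.84 times the highest of the latter. The group means were 0.299 ± 0.0374 CPM (SD, n = 3) and 2.18 ± 0.241 CPM (SD, n = 3), which gave a log2 fold change of 2.85 (standard error, SE, 0.24) and a fitted fold change of 7.22. With so few reads the counting error is wide: the exact Poisson 95% interval of siNT 1 ran from 0.134 to 0.453 CPM and that of siLTBP2 1 from 1.56 to 2.41 CPM, and these intervals cover counting error only. The pooled spread between libraries of one group was 0.17 on the log2 scale. All siNT levels lay well inside the interval of siNT 1, so the SD of siNT may understate its error. For comparison, all siLTBP2 libraries lay above all siNT libraries in 18.7% of the 16920 genes tested. Of the genes tested, 1.29% were deregulated upwards, that is, had an adjusted p below 0.01 and more than 2 times the siNT level. These thresholds are those of the study, which applied them to the edgeR likelihood ratio test and not to the quasi-likelihood test used here.

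*TMCC1*, the member with the highest level, was moderately lower in siLTBP2. Its counts were 1201, 1112 and 1143 in siNT and 809, 835 and 969 in siLTBP2, or 26.0, 22.5 and 21.2 CPM against 18.6, 17.7 and 18.4 CPM. The groups did not overlap, as in the 18.3% of tested genes whose siLTBP2 libraries all lay below the siNT libraries. The highest siLTBP2 library was 0.876 of the lowest siNT library, so the gap between the groups was small. The means were 23.2 ± 2.46 CPM (SD, n = 3) and 18.2 ± 0.480 CPM (SD, n = 3), so that 78.4% of the siNT level remained (log2 fold change -0.35, SE 0.11). Most of the spread was in siNT, where library 1 was the highest, and without this library the log2 fold change was -0.27.

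*TMCC2* differed little. Its counts were 473, 461 and 574 in siNT and 362, 486 and 446 in siLTBP2, or 10.2, 9.34 and 10.6 CPM against 8.31, 10.3 and 8.46 CPM. The groups overlapped, since siLTBP2 2 lay above both siNT 1 and siNT 2. The means were 10.1 ± 0.668 CPM (SD, n = 3) and 9.02 ± 1.10 CPM (SD, n = 3; log2 fold change -0.16, SE 0.13).

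**Figure D1:**
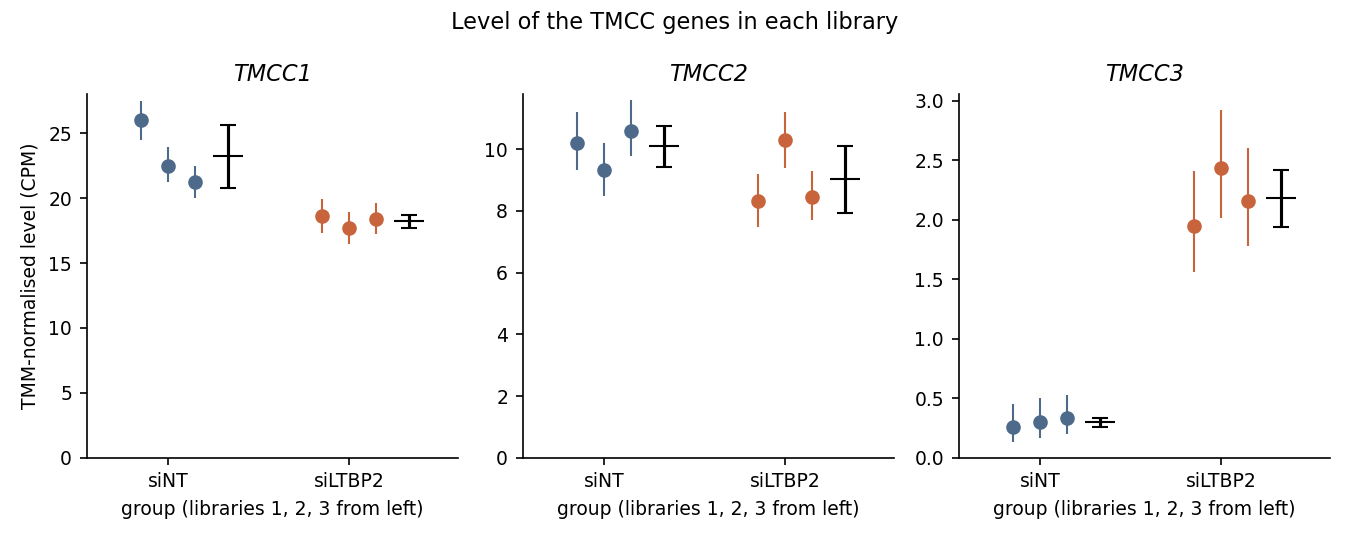
TMM-normalised level in CPM (y axis, from 0, with its own scale in each panel) of *TMCC1*, *TMCC2* and *TMCC3* in the siNT (blue) and siLTBP2 (orange) libraries 1 to 3, with the exact Poisson 95% interval of each count and, in black, the group mean and SD (n = 3). *TMCC3* lies between 0.259 and 0.334 CPM in siNT and between 1.95 and 2.43 CPM in siLTBP2, *TMCC1* is lower in siLTBP2 without overlap, and the groups overlap for *TMCC2*.

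The order of the members by level did not change with silencing. Divided by the merged exon length of each gene, *TMCC1* had 2.7 ± 0.286 CPM per kb in siNT, *TMCC2* 1.73 ± 0.115 and *TMCC3* 0.0459 ± 0.00574 (SD, n = 3). In siLTBP2 the per-length levels were 2.11 ± 0.0557, 1.55 ± 0.188 and 0.335 ± 0.0371 CPM per kb (SD, n = 3). In each of the 6 libraries *TMCC1* was above *TMCC2* and *TMCC2* above *TMCC3*. The distance between the members did differ: the per-length level of *TMCC1* was 48.0 to 75.6 times that of *TMCC3* in the siNT libraries and 5.49 to 7.19 times in the siLTBP2 libraries. *TMCC2* was 34.4 to 44.1 times *TMCC3* in siNT and 4.38 to 4.76 times in siLTBP2. Between *TMCC1* and *TMCC2* the ratio was 1.35 to 1.72 in siNT and 1.16 to 1.51 in siLTBP2, so these ranges overlap.

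As a share of the summed per-length level of the family, *TMCC3* made up 0.828%, 1.09% and 1.18% in siNT 1 to 3, against 7.72%, 8.92% and 8.47% in siLTBP2 1 to 3. The means were 1.03 ± 0.184% and 8.37 ± 0.606% (SD, n = 3). With the length of the canonical transcript in place of the merged exons, they were 0.817% and 6.70%. The share of *TMCC1* was 60.2 ± 3.13% in siNT and 53.0 ± 3.53% in siLTBP2, and that of *TMCC2* was 38.8 ± 2.98% and 38.7 ± 3.02% (SD, n = 3). The summed per-length level was 4.47 ± 0.296 CPM per kb in siNT and 4.0 ± 0.167 in siLTBP2 (SD, n = 3), so the total was not larger in siLTBP2 although *TMCC3* was. In CPM, the mean difference between the groups was 1.88 for *TMCC3* and -5.03 for *TMCC1*.

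**Figure D2:**
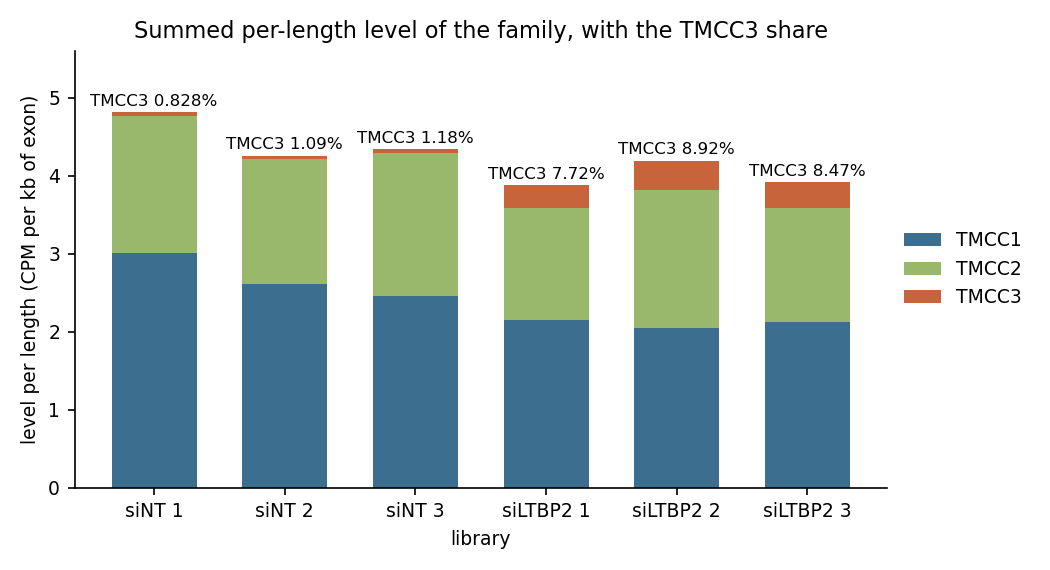
Per-length level (y axis, CPM per kb of merged exon, from 0) of *TMCC1*, *TMCC2* and *TMCC3* stacked for each of the 6 libraries (x axis), with the percentage of the sum contributed by *TMCC3* above each bar. *TMCC3* is a thin band of 0.828% to 1.18% in siNT and 7.72% to 8.92% in siLTBP2, below the other 2 members in all libraries.

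The position of *TMCC3* among all genes depended on how well expressed a gene had to be. By log2 fold change it ranked 8 of the 16920 genes tested, and the 7 genes above it had means of 0.162 to 0.715 CPM. Among the 12982 genes with a mean of at least 1 CPM it was first, with a mean of 1.24 CPM. The next gene in this order was *PODXL*, which encodes the cell surface sialomucin podocalyxin, at 0.930, 0.648 and 1.61 CPM in siNT against 5.46, 5.54 and 11.4 CPM in siLTBP2. Its log2 fold change was 2.80 (SE 0.37), so its distance from *TMCC3* was smaller than either standard error. *TMCC3* is not among the 9397 genes with a mean of at least 10 CPM, and in siNT 93.0% of the genes tested had a higher level, against 68.9% in siLTBP2. It is therefore a well-expressed gene only by the limit of 1 CPM. That limit was set on the mean of all 6 libraries. *TMCC3* met it only through siLTBP2, with group means of 0.299 CPM in siNT and 2.18 CPM in siLTBP2. Its first place restates how the family was chosen.

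The profile of *TMCC3* over the 6 libraries was compared with that of the 11407 coding genes of at least 1 CPM by the root mean square difference of log2 levels, each centred on its own mean. The measure rests on the same contrast that singled out *TMCC3*, so genes with a similar fold change come first. The nearest was *SLC28A3*, a concentrative nucleoside transporter, at a distance of 0.28, with 0.605, 0.527 and 0.742 CPM in siNT against 3.35, 3.19 and 4.36 CPM in siLTBP2. It was followed by the growth factor gene *FGF1* at 0.29 and by *SNCG*, which encodes gamma-synuclein, at 0.30. The remaining genes were *INSC*, an adaptor of spindle orientation, at 0.33 and *SEMA7A*, a membrane-anchored semaphorin, at 0.34. Their log2 fold changes were 2.53, 2.56, 2.35, 2.42 and 2.59 in this order, each below the 2.85 of *TMCC3*.

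The description of the members kept its directions across libraries and settings. Leaving out 1 library at a time put the log2 fold change of *TMCC3* between 2.76 and 2.94, that of *TMCC1* between -0.41 and -0.27 and that of *TMCC2* between -0.27 and -0.10. Under other tests, filters and normalizations, *TMCC3* lay between 2.7 and 2.86, *TMCC1* between -0.39 and -0.35 and *TMCC2* between -0.20 and -0.16. *TMCC1* and *TMCC2* were thus lower and *TMCC3* higher in siLTBP2 under every setting tried, including each normalization. All settings draw on the same 6 libraries, so a constant sign adds little. For *TMCC2* the reported value was -0.16 with an SE of 0.13, and its groups overlapped.

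**Figure D3:**
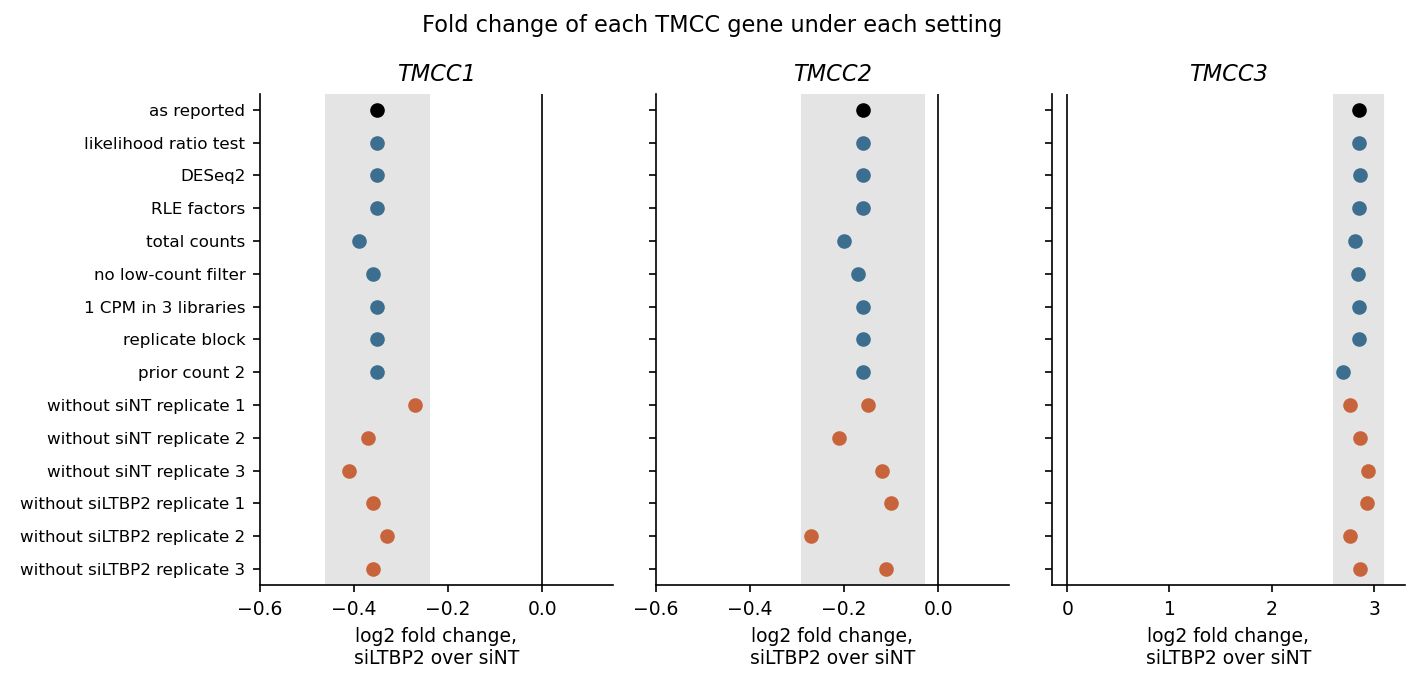
Log2 fold change, siLTBP2 over siNT (x axis, with a wider scale for *TMCC3*), of each TMCC gene as reported (black), under other tests, filters and normalizations (blue) and with 1 library left out (orange). The grey band is the reported value ± 1 standard error and the black line is 0; no point crosses 0, and the points of *TMCC1* and *TMCC2* move by up to about the size of their standard error.

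The genes that work with the family or in the same compartment were taken from 5 lists of 83 genes in all, of which 78 were tested. Of these, 10 were higher and 9 lower in siLTBP2 at an adjusted p below 0.05 and 59 did not pass (edgeR quasi-likelihood test, Benjamini-Hochberg over all genes). Among all genes tested, 9.76% were higher and 9.51% lower by the same rule, so the lists were near the background in both directions, and their median log2 fold change was 0.01 against -0.01 for all genes. By the stricter rule 2 were deregulated, *ANXA1* upwards and *REEP2* downwards, where 1.29% of all genes were deregulated upwards and 1.27% downwards. *REEP2* missed this rule without siNT 1, siNT 2 or siLTBP2 1 and *ANXA1* without siNT 1, and both kept an adjusted p below 0.05 in all of these. When libraries were left out singly, 12 of the 19 genes kept an adjusted p below 0.05 throughout and 7 lost it at least once. The count itself was 12 without siNT 1.

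Among the atlastins, the binding partners of TMCC3, *ATL3* rose, *ATL1* fell and *ATL2* did not pass. *ATL3*, the atlastin with the highest level here and also a receptor for degradation of ER tubules, was at 270 ± 2.42 CPM in siNT against 364 ± 17.2 CPM in siLTBP2 (SD, n = 3; log2 fold change 0.43, SE 0.08, adjusted p = 0.0054). *ATL1*, the form best known from neurons, was at 37.6, 35.7 and 34.7 CPM in siNT against 24.9, 22.4 and 19.1 CPM in siLTBP2 (log2 fold change -0.70, SE 0.11, adjusted p = 0.0016). *ATL2* differed by 0.03 on the log2 scale (SE 0.12, adjusted p = 0.89). *LNPK*, which encodes lunapark, a stabilizer of three-way junctions, rose from 84.3 ± 2.67 to 106 ± 8.83 CPM (SD, n = 3; log2 fold change 0.33, SE 0.09, adjusted p = 0.023), a call lost without siNT 1, siNT 3, siLTBP2 2 or siLTBP2 3, where its adjusted p reached 0.091.

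Of the 20 tested genes that shape ER tubules, 3 were higher, 4 were lower and 13 did not pass, with a median log2 fold change of -0.05. Both counts were above the shares over all genes tested, 9.76% higher and 9.51% lower, but the list is short. The gene with the largest change was *REEP2*, a membrane-bending protein of the REEP family. It was at 96.3, 105 and 48.3 CPM in siNT against 17.0, 27.7 and 5.48 CPM in siLTBP2, where library 3 was the lowest of both groups (log2 fold change -2.32, SE 0.46, adjusted p = 0.006). *REEP4*, which keeps ER membranes away from chromosomes in mitosis, fell as well, from 32.9 ± 2.95 to 22.1 ± 0.586 CPM (SD, n = 3; log2 fold change -0.58, adjusted p = 0.0026). *RAB3GAP1*, part of the exchange factor of RAB18, rose (log2 fold change 0.38, adjusted p = 0.0066).

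Of the 15 genes of ER sheets and the translocon, 3 were higher and 1 lower, with a median of 0.10. Over all genes tested, the shares were 9.76% higher and 9.51% lower. *SSR3*, a subunit of the translocon-associated protein complex, rose from 324 ± 4.99 to 513 ± 59.9 CPM (SD, n = 3; log2 fold change 0.66, adjusted p = 0.0014). *TRAM2*, a translocation protein, rose (log2 fold change 0.43, adjusted p = 0.0073). *SEC61A2*, which encodes the minor form of the channel's alpha subunit, fell (log2 fold change -0.68, adjusted p = 0.0028).

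Of the 22 genes of ER-endosome contact and endosome fission, the process TMCC1 serves, 2 were higher, 2 were lower and 18 did not pass, with a median of 0.01. These counts were near the shares over all genes tested, 9.76% higher and 9.51% lower. *CORO1C*, the partner of TMCC1 in bud fission, was at 525 ± 11.2 CPM in siNT against 537 ± 61.7 CPM in siLTBP2 (SD, n = 3; log2 fold change 0.03, SE 0.10, adjusted p = 0.86). *ANXA1*, which encodes annexin A1, a tether at such contacts, rose from 185, 283 and 204 CPM to 439, 469 and 513 CPM (log2 fold change 1.08, SE 0.15, adjusted p = 7.4e-04). The other genes past the threshold were the sterol transfer protein *STARD3*, with a log2 fold change of 0.34 (adjusted p = 0.046), the ER-bound phosphatase *PTPN1*, at -0.30 (adjusted p = 0.033), and the oxysterol-binding protein *OSBPL1A*, at -0.30 (adjusted p = 0.035). With 1 library left out, *STARD3* kept its call only without siNT 3, and *PTPN1* and *OSBPL1A* only without siNT 2, with adjusted p up to 0.16, 0.12 and 0.14 in the other fits. *STARD3* also missed the threshold with total-count scaling (adjusted p = 0.073).

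Of the 16 tested genes of contacts between ER and plasma membrane, 2 were higher and 2 lower, with a median of 0.08. Here too the shares over all genes tested were 9.76% higher and 9.51% lower. Genes of the GRAMD family, whose proteins bind the plasma membrane from the ER, were on both sides: *GRAMD2B* rose from 12.5 ± 1.39 to 21.3 ± 0.954 CPM (SD, n = 3; log2 fold change 0.77, adjusted p = 0.0012) and *GRAMD1A* fell from 58.0 ± 3.55 to 43.3 ± 0.950 CPM (SD, n = 3; log2 fold change -0.42, adjusted p = 0.0063). *GRAMD1B* was higher at a low level, 1.10 against 1.91 CPM (log2 fold change 0.79, adjusted p = 0.029), and *C2CD2* was lower (log2 fold change -0.46, adjusted p = 0.0497). The call of *GRAMD1B* was lost without siNT 1, siNT 2, siLTBP2 2 or siLTBP2 3 (adjusted p up to 0.11), and that of *C2CD2* without siNT 1, siNT 3, siLTBP2 1 or siLTBP2 2 (up to 0.18) and with RLE scaling (0.051). Of the 8 tested receptors for degradation of the ER, *ATL3* was the 1 gene that passed, and the median was -0.01.

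**Figure D4:**
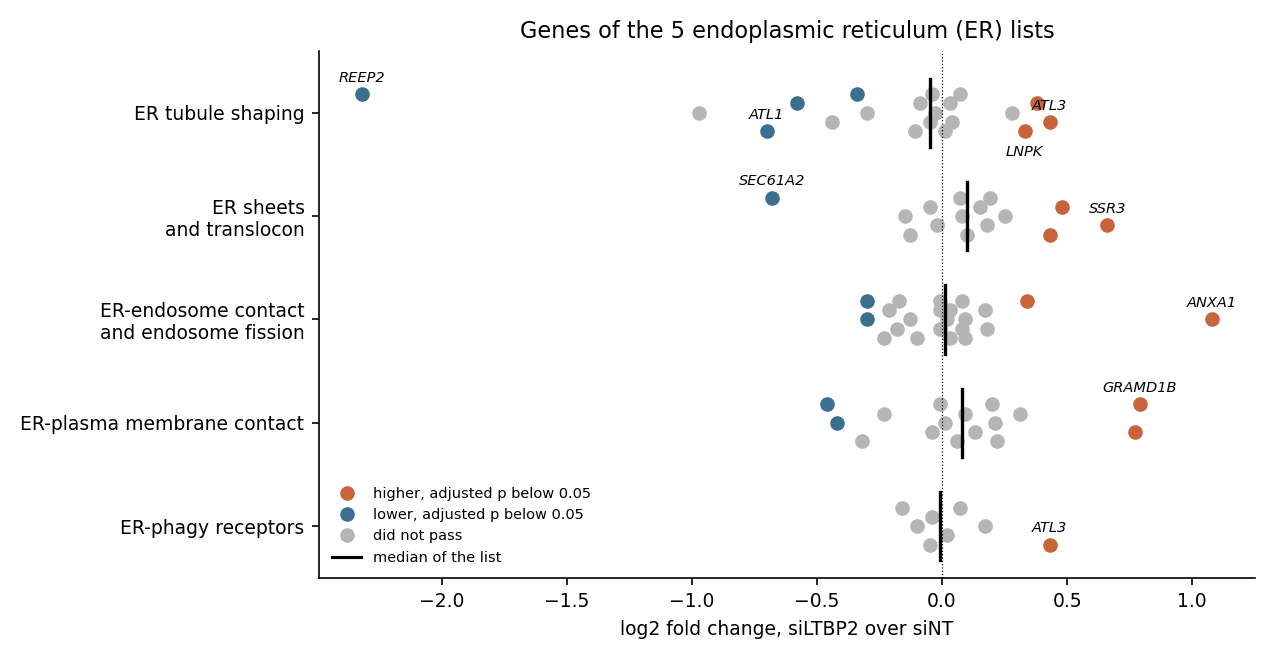
Log2 fold change, siLTBP2 over siNT (x axis), of each tested gene of the 5 ER lists (rows; a gene on 2 lists is drawn in both), with vertical bars at the median of each list. Genes with an adjusted p below 0.05 are orange where higher and blue where lower; they lie on both sides of 0 in the first 4 lists, and *REEP2* at -2.32 and *ANXA1* at 1.08 stand farthest out.

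Genes next to the members were examined because position played no part in their choice. Of 13 tested genes that overlap a member or are among the nearest 2 on either side, 1 was higher and 2 were lower at an adjusted p below 0.05, none was deregulated and 10 did not pass. Over all genes tested, 9.76% were higher and 9.51% lower by the same rule, and 1.29% and 1.27% were deregulated, so with 13 genes the count is near the background. Around *TMCC3*, no neighbour passed in the reported fit, though *NDUFA12* did under other settings. The nearest tested gene, the pseudogene *SUCLG2P2* at 17.6 kb, differed by -0.15 on the log2 scale (SE 0.39, adjusted p = 0.84) at a very low level, and *CEP83-DT* had 0.32 (SE 0.34, adjusted p = 0.56). The first genes upstream are *NDUFA12*, a subunit of respiratory complex I, at 245 kb with -0.25 (SE 0.09, adjusted p = 0.069, but 0.035 with total-count scaling) and the nuclear receptor gene *NR2C1* with -0.10 (SE 0.09, adjusted p = 0.52).

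At *TMCC1*, both lncRNAs next to or inside the gene were lower, as *TMCC1* was. *TMCC1-DT*, whose GENCODE 44 start lies 100 bases from that of *TMCC1* on the opposite strand, within the stretch printed above, had counts of 145, 135 and 110 in siNT and 76, 72 and 83 in siLTBP2. Its groups did not overlap, and its level was 2.64 ± 0.554 CPM in siNT against 1.61 ± 0.116 CPM in siLTBP2 (SD, n = 3; log2 fold change -0.71, SE 0.21, adjusted p = 0.037). Left out one at a time, 5 of the 6 libraries took this call away, all but siNT 3, with adjusted p up to 0.13. ENSG00000203644, a lncRNA that lies inside *TMCC1* on the same strand, was at 5.48 ± 0.329 CPM in siNT against 3.99 ± 0.321 CPM in siLTBP2 (SD, n = 3; log2 fold change -0.46, SE 0.14, adjusted p = 0.047). Without any one of the 6 libraries its call was lost, with adjusted p between 0.077 and 0.16, as it was without the low-count filter (0.069). With the replicate number as a block in the quasi-likelihood test, both lncRNAs passed, *TMCC1-DT* at an adjusted p of 0.0037 and ENSG00000203644 at 0.0073. Reads of ENSG00000203644 cannot be told apart from those of unspliced *TMCC1* RNA over the same stretch. The semaphorin receptor gene *PLXND1* (log2 fold change -0.09, adjusted p = 0.77), *RN7SL752P* (0.36, adjusted p = 0.47) and *FAM86HP* (0.02, adjusted p = 0.96), farther out, did not pass.

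Around *TMCC2*, *RBBP5*, which encodes a subunit of histone H3 lysine methyltransferase complexes and lies 106 kb away, rose (log2 fold change 0.42, SE 0.08, adjusted p = 0.0053), also without any single library (highest adjusted p 0.027). The nearer genes *DSTYK*, with a log2 fold change of -0.05 (adjusted p = 0.7), and *NUAK2*, at -0.01 (adjusted p = 0.96), both kinases, did not pass, nor did the pseudogene *SNRPGP10*, at 0.01 (adjusted p = 0.98). Values of the pseudogenes among the neighbours are uncertain, since their reads may be hard to tell from those of near-identical copies.

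**Figure D5:**
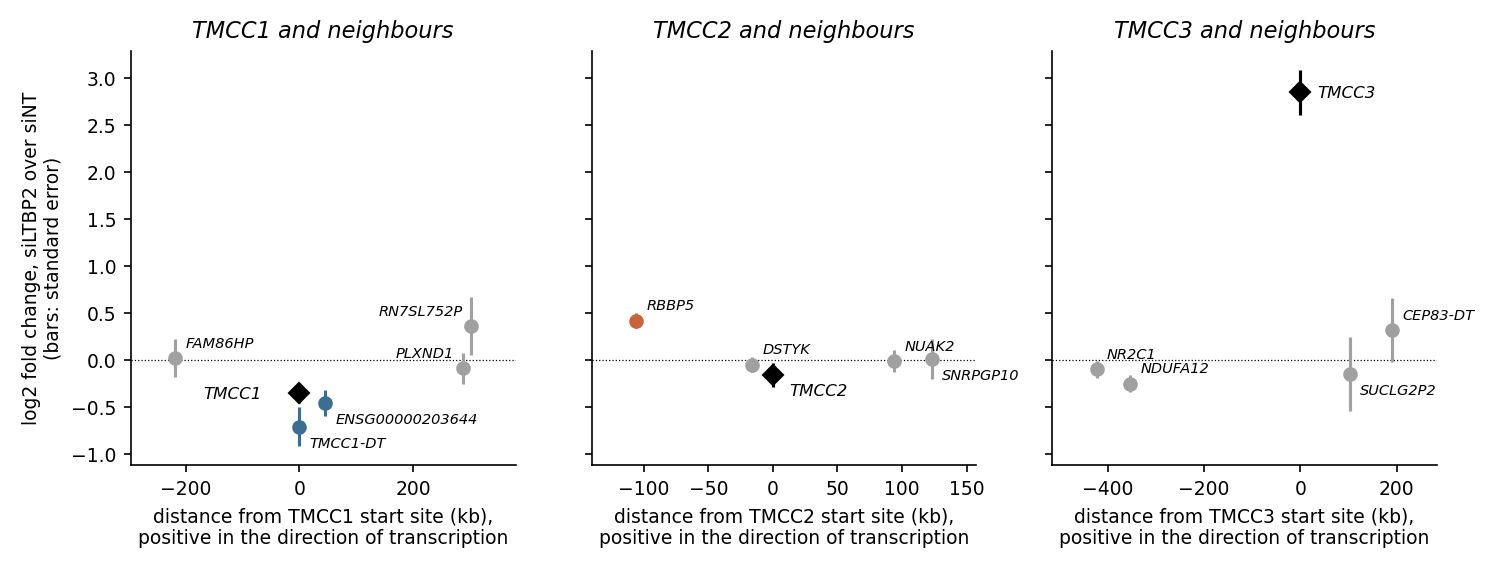
Log2 fold change, siLTBP2 over siNT, with its standard error (y axis, shared) of each member (black diamonds) and its tested neighbours (circles), against the distance between start sites in kb (x axis, positive in the direction of transcription). *TMCC3* stands at 2.85 while its neighbours lie between -0.25 and 0.32; *TMCC1* lies beside *TMCC1-DT* and ENSG00000203644 (blue, lower at an adjusted p below 0.05), and *RBBP5* (orange) is the neighbour that was higher.

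The silenced gene and the cell type were checked in the same libraries. *LTBP2*, which encodes a latent TGF-beta binding protein of the extracellular matrix, fell from 23.1 ± 1.89 to 7.03 ± 1.39 CPM (SD, n = 3), leaving 30.4% (log2 fold change -1.72, SE 0.15, adjusted p = 6.6e-05), so its level in siNT was close to that of *TMCC1*. The 9 fibroblast markers summed to between 9930 and 13200 CPM in siNT and between 10100 and 14400 CPM in siLTBP2. Of these markers 1 passed the test, the receptor gene *PDGFRB*, which fell from 168 ± 9.69 to 110 ± 13.3 CPM (SD, n = 3; log2 fold change -0.60, SE 0.10, adjusted p = 0.0025), and the median log2 fold change of the 9 was -0.22. Leukocyte markers (4 of 4) stayed under 0.5 CPM in every library, as did 5 of 7 epithelial markers, *KRT20* among them at 0. The epithelial sum was 40.2 to 52.6 CPM in siNT and 85.6 to 99.3 CPM in siLTBP2. *KRT18* was deregulated upwards, at 29.4 to 41.1 CPM in siNT and 72.1 to 86.7 CPM in siLTBP2 (log2 fold change 1.15, SE 0.13, adjusted p = 2.4e-04, quasi-likelihood test). Most of the rest of the epithelial sum came from *KRT8*, which did not pass. Of the 4 endothelial markers, 2 were under 0.5 CPM, *CDH5* and *PECAM1*. The other endothelial markers were not: *TEK* was at 65.9 to 81.5 CPM in siNT and 59.1 to 73.1 CPM in siLTBP2, and *VWF* at 1.43 to 1.84 and 0.702 to 1.10 CPM. *TEK* thus made up most of the endothelial sums of 67.4 to 83.6 and 59.9 to 74.3 CPM. The *KRT18* level was thus higher and the *PDGFRB* level lower in the libraries with more *TMCC3*, and their part in the result was not tested. In bulk RNA, more cells with a transcript and more of it per cell cannot be told apart.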

How the data were processed

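Total RNA of 6 CCD18Co libraries was sequenced. Per the study's methods and the submitters' processing notes, the authors aligned reads of stranded libraries to GRCh38 with STAR 2.7.1a and used HTSeq 0.11.2 to make the deposited table of raw gene counts. Neither the strand setting nor the Ensembl release is given in the sources used here. Totals of 44663424 to 53576899 counts per library limit the precision of low genes such as *TMCC3*. No column belonged to another sample.

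Counts were analysed with edgeR 4.0.16 (R 4.3.3), by the two-sided quasi-likelihood test without a block after filterByExpr and TMM, with Benjamini-Hochberg adjustment over 16920 genes. The SE of a log2 fold change was obtained from its size and the square root of its F statistic. CPM use TMM library sizes, and lengths are merged exons of GENCODE 44. Steps were tested on simulated data. Start-site windows are from RefSeq (GRCh38.p14), which held all 3 members.

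Members and lists were chosen with earlier results of these data known, so they support nothing by themselves. Genes named were the members, *TEX28*, *LTBP2*, the atlastins, *LNPK* and *CORO1C*, from each list the deregulated genes and up to 2 further genes per direction with the smallest p at an adjusted p below 0.05, the neighbours, the 5 genes most like *TMCC3* and the gene next to it in order. Alternatives were the likelihood ratio test, DESeq2 1.42.0, RLE and total-count scaling, no filter, 1 CPM in 3 libraries, a prior count of 2, the replicate number as a block and leaving out each library. The erythroid marker list is not reported here.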

Additional observations from a re-analysis of the deposited data

How the results depend on the processing

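The direction of *TMCC1*, *TMCC2*, *TMCC3* and *LTBP2* held under every alternative run for each (the prior count of 2 was run for the TMCC genes alone). *LTBP2* lay between -1.89 and -1.61 with a library left out. The *TMCC3* share was 8.10% to 8.70% in siLTBP2 and 0.961% to 1.14% in siNT with a library left out, and 6.70% and 0.817% with canonical transcript lengths. The deregulated genes of the ER lists numbered 2, but 1 with the filter of 1 CPM in 3 libraries, 19 at an adjusted p below 0.05 and 0 to 2 with a library left out. The neighbours past 0.05 numbered 3, and 1 to 2 with a library left out. For the 32 single genes, 41 values fell short of the threshold and 17 turned direction. A further 2 newly passed the threshold (*NDUFA12*, with total counts and with the replicate block). The other values kept direction and side of the threshold, and the cause of the changes was not tested. Those that turned were values near 0. With total counts, *ATL2* was -0.01, *CORO1C* -0.004, *SNRPGP10* -0.03 and *FAM86HP* -0.02. With a library left out, *ATL2* ran from -0.07 to 0.12, *CORO1C* from -0.05 to 0.11, *PLXND1* from -0.27 to 0.09, *NUAK2* from -0.08 to 0.08, *SNRPGP10* from -0.18 to 0.24, *SUCLG2P2* from -0.54 to 0.10 and *FAM86HP* from -0.16 to 0.19. Depth limits *TMCC3*, at 12 to 18 counts in siNT, and low neighbours such as *CEP83-DT*, at 9 to 15 counts.

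The labels do not say whether the shared replicate numbers pair the libraries, and the reported fit used no block. Deviations of same-numbered libraries correlated by 0.30, 0.08 and 0.43, and those of all other pairs by -0.39 to 0.10. For siNT 2 the best match was siLTBP2 1, by 0.10. These correlations do not settle the pairing, and if it holds, the errors given without a block do not take it into account. Blocked on the replicate number (replicate block), the log2 fold changes were -0.35 for *TMCC1*, -0.16 for *TMCC2*, 2.85 for *TMCC3* and -1.72 for *LTBP2*. The SE of *REEP2* was then 0.12 instead of 0.46, and that of *TMCC3* 0.26 instead of 0.24. In the ER lists, 2 genes were deregulated and 33 had an adjusted p below 0.05, against 19 without the block. The 4 neighbours below 0.05 were *RBBP5*, *TMCC1-DT*, ENSG00000203644 and *NDUFA12* (adjusted p = 0.009, quasi-likelihood test). The share of all genes that passed with the block is not given here. Neither count can therefore be set against the background, or read as particular to these genes.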
